A study of Mus musculus with 18 samples.

Results

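The genes of the mitochondrial ribosomal proteins were examined in RNA-Seq libraries of B cells isolated from spleens and from Peyer's patches (PP) of mice sensitized to ovalbumin (OVA). Members were all genes whose symbol is *Mrpl* or *Mrps* followed by a number and at most 1 letter, with pseudogenes left out. This rule gave 78 of the 55491 genes in the table. It uses names only and no expression value, although the family was chosen with earlier results of these data known. Of these genes, 51 encode proteins of the large subunit and 26 of the small subunit. *Mrps18a* and *Mrps30* carry small-subunit names but encode large-subunit proteins, and they were counted as large. The remaining gene, *Mrps36*, carries the family name but is now known as a component of the 2-oxoglutarate dehydrogenase complex rather than of the ribosome.

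The mitochondrial ribosome translates the mRNAs of the mitochondrial genome, which encode core subunits of the respiratory chain and of ATP synthase. All of its proteins are encoded in the nucleus, made on cytosolic ribosomes, and imported. Some descend from bacterial ribosomal proteins and others exist only in mitochondria. B cells that enter the cell cycle enlarge their mitochondria and their translation machinery. Of the 77 ribosomal members, 46 have a bacterial counterpart and 31 are specific to mitochondria.

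All mice were female BALB/cJ, sensitized intraperitoneally on days 0 and 14 with 20 μg OVA in 1 mg alum, at 4 to 6 weeks of age. They were treated intravenously on days 28 and 42 with 2.5 mg of polymer nanoparticles encapsulating OVA (OVA NP), 100 μg of soluble OVA, or 100 μL of PBS, and B cells were taken on day 44 at 10 to 12 weeks. No unsensitized group was analysed here. Tissue and treatment gave 6 groups of 3 libraries, 18 in all. B cells were obtained by magnetic negative selection, after mechanical dissociation and red cell lysis for spleen and after enzymatic digestion for PP, so tissue and preparation cannot be told apart. The labels call the replicates biological but give no mouse, cage, or batch, and p-values measure only the spread between these libraries.

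Libraries held between 14177253 and 30052297 counts, and members took between 0.219% and 0.292% of them. The lowest count of any member in any library was 57, for *Mrps6*, and all 78 members passed the expression filter in every comparison. All 8 B cell markers on the list used here, which include *Cd79a* and *Ms4a1*, were detected in every library. As CPM, which are counts scaled to the library total after TMM normalization, their levels summed to 10039–12056 in spleen and to 7077–9265 in PP. Epithelial markers summed to 7.15–10.1 CPM in spleen and 159–727 CPM in PP. T cell markers summed to 64.9–84.6 CPM in spleen and 133–180 CPM in PP. In such bulk samples, fewer cells of a type and less RNA per cell cannot be told apart.

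Members were distributed over 17 chromosomes, with 11 on chromosome 11. Short stretches of promoter sequence are shown for members on which the results below turn, because the promoters of nuclear genes for mitochondrial proteins are known to bind NRF1, GABP (also called NRF2), and YY1. RefSeq promoters, with 250 bases before and 50 after the start, were matched for 69 members, and all windows are from GRCm38.p6. Each window shown here holds 100 bases before and 20 bases after the start, is written 5′ to 3′ on the strand of the gene, and was chosen after the expression values were known. Capitals mark the words GCGCATGC (NRF1), CCGGAAG (GABP), and CACGTG (the E-box, which is bound by MYC among others), searched on both strands. The first pair, at chr3:94443236-94443355 (+) and chr4:155802778-155802897 (+), belongs to members that followed the family closely. In *Mrpl9* the capitals cover matches on both strands, which overlap.
Mrpl9: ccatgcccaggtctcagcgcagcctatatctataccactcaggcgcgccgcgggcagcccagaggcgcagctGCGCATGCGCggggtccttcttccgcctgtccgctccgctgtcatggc
Mrpl20: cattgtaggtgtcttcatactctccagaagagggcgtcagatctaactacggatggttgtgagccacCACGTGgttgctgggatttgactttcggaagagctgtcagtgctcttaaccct

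The next pair, at chr8:71464826-71464945 (+) and chr9:98601660-98601779 (−), belongs to the member with the largest treatment difference and to a small-subunit member whose response differed between tissues. Each holds the GABP word.
Mrpl34: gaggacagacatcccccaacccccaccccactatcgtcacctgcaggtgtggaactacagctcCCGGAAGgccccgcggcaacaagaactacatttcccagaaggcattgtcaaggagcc
Mrps22: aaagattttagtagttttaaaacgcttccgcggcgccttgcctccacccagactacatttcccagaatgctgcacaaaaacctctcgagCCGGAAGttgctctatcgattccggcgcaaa

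The last set, at chr11:58171564-58171683 (+), chr11:94653691-94653810 (+), and chr5:31613851-31613970 (+), belongs to members with a difference between tissues or with little variation. *Mrpl22* was lower and *Mrpl27* higher in PP than in spleen of some mice, and *Mrpl33* varied little between the groups.
Mrpl22: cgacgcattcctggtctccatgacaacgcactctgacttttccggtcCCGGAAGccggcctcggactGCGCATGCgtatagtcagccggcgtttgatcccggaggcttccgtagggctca
Mrpl27: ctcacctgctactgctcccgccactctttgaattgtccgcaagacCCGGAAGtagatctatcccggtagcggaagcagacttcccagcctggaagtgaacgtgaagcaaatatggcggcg
Mrpl33: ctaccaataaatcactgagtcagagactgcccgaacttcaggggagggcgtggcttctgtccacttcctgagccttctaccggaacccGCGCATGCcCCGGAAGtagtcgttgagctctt

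Over the full RefSeq promoter, the GABP word was held by 26 of the 69 members (37.7%), against 9.93% of all promoters of the same length and 19.4% of those of genes expressed here. The NRF1 word was held by 8 members (11.6%), against 3.05% of all promoters and 5.71% of expressed ones. The YY1 word AAGATGGC was held by 12 members (17.4%), against 3.19% and 5.04%. The E-box was held by 5 members (7.25%), against 8.09% and 11.4%, so its share in members was the lower one. The GC content of member promoters was 58.3%, against 52.7% in all promoters and 60.3% in expressed ones. A match describes letters in the window and not a bound site.

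Levels between members were compared per length, as RPKM, the CPM divided by the exon length in kilobases. This length merges the exons of all annotated transcripts of a gene, whether or not B cells make them. The mean RPKM over the 18 libraries spanned 13.9-fold, from 3.17 to 44.1, with a median of 12.4. *Mrpl18* (44.1 RPKM), the counterpart of the bacterial protein that binds 5S rRNA, *Mrpl43* (36.0 RPKM), and *Mrpl54* (35.0 RPKM) were the highest. For *Mrpl43*, 33.4% of the exon sequence overlaps *Twnk* on the opposite strand. *Mrps35* (3.17 RPKM), *Mrpl47* (3.26 RPKM), and *Mrpl33* (3.46 RPKM) were the lowest. Merged exon lengths were 8631, 4419, and 7326 bases for these, and 1398, 1520, and 825 bases for *Mrpl18*, *Mrpl43*, and *Mrpl54*. The ranking and the span therefore depend on the annotated length as well as on the counts.

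The group with the highest mean CPM was soluble OVA in PP for 51 members and soluble OVA in spleen for 19. OVA NP in spleen was highest for 6 members, PBS in spleen and OVA NP in PP for 1 each, and PBS in PP for none. The lowest group was OVA NP in PP for 36 members, PBS in spleen for 28, and PBS in PP for 14. The median over members of the log2 deviation from each gene's own mean was 0.19 to 0.25 in the 3 soluble OVA libraries of PP. It was −0.15 to −0.06 in the PBS libraries and −0.22 to −0.08 in the OVA NP libraries of PP. In spleen it was −0.15 to −0.07 with PBS, 0.01 to 0.23 with soluble OVA, and 0.00 to 0.06 with OVA NP. Replicate 1 of the soluble OVA spleens stood above the other libraries of its tissue, and counts of called members in the comparisons that use it are given with and without it.

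**Figure D1:**
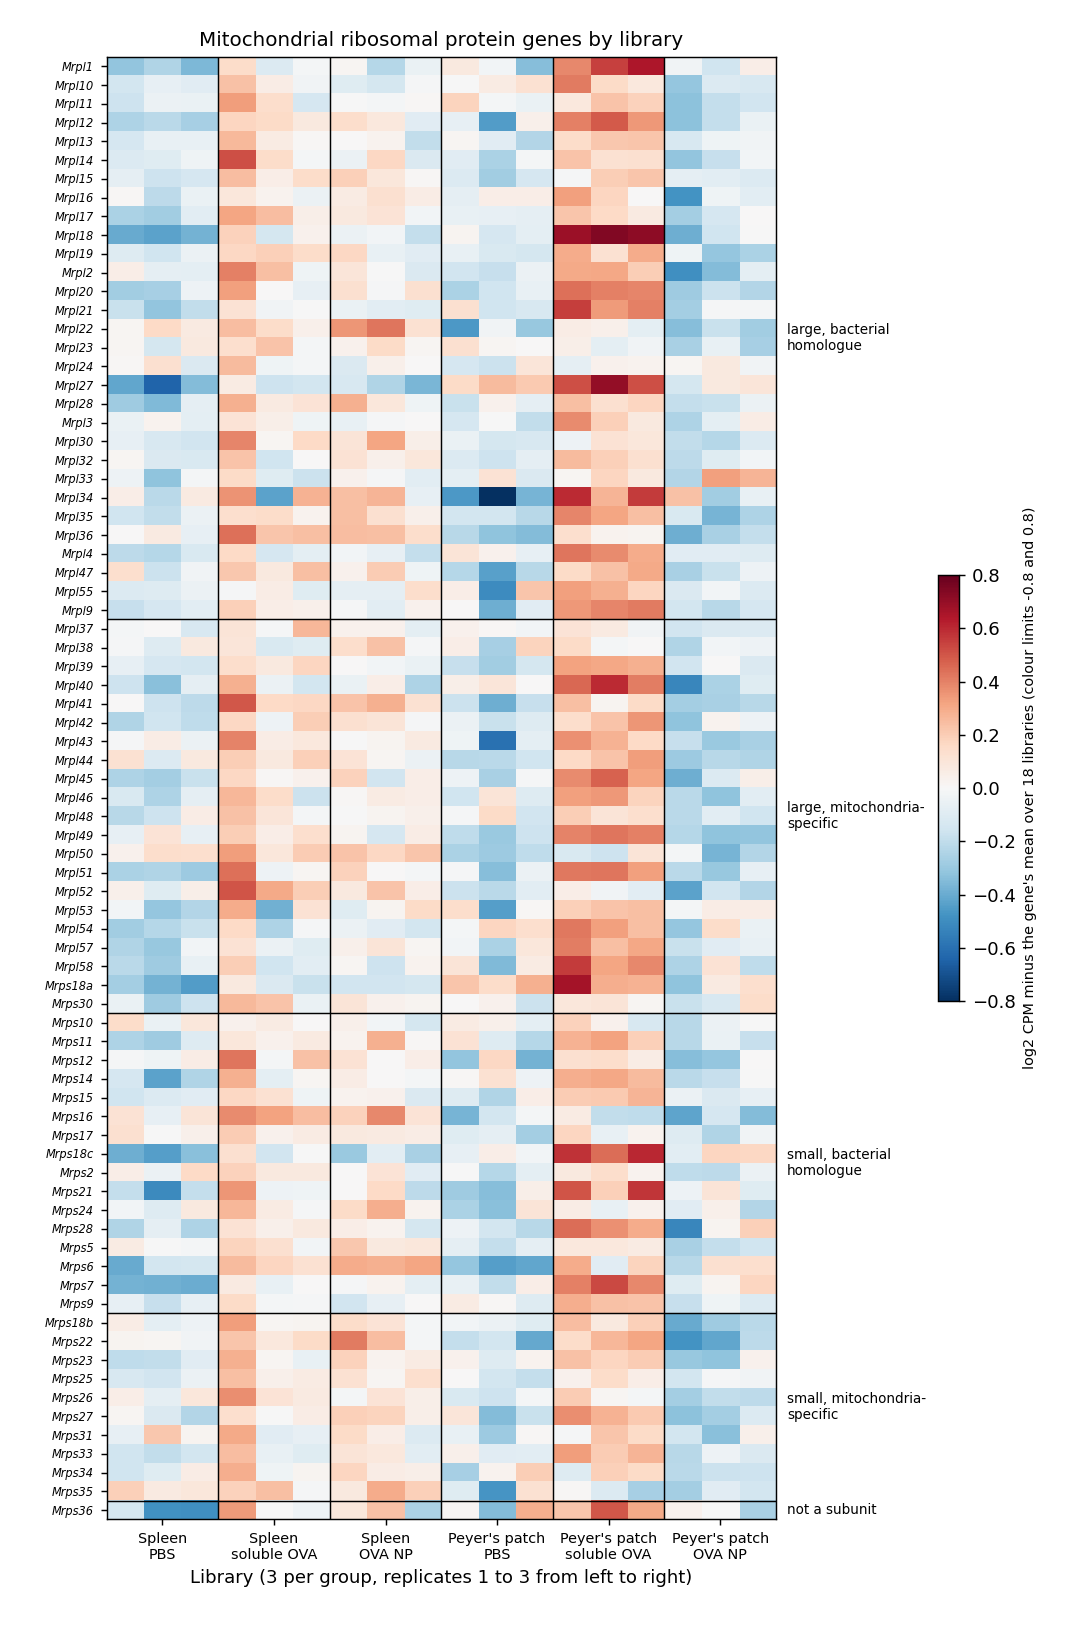
Log2 deviation of each of the 78 members (rows) from its own mean over the 18 libraries (columns, ordered by tissue and treatment), with the color scale in log2 units. The 3 soluble OVA libraries of PP form the most even block of high values, with a median deviation of 0.19 to 0.25.

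Most members moved together across libraries. The Pearson correlation of each member's log2 CPM with the median of the others had a median of 0.77 over the 18 libraries, was above 0.5 for 68 members, and was below 0 for none. These libraries share their depth and composition, and the value is a description. *Mrpl20* (r = 0.94), whose bacterial counterpart acts early in subunit assembly, *Mrpl51* (0.94), *Mrps33* (0.91), *Mrpl12* (0.91), and *Mrpl9* (0.90) were most like the rest. *Mrpl24* (0.18), *Mrps35* (0.21), *Mrpl33* (0.29), *Mrps10* (0.30), and *Mrpl50* (0.32) were least like it. Levels of *Mrpl24*, a protein near the exit of the nascent chain, were 62.7, 68.1, and 57.4 CPM in spleen with PBS and 59.4, 63.8, and 63.4 CPM in PP with soluble OVA. Its groups overlapped, and 26.3% of its exon sequence is shared with *Rrnad1*.

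In PP, members were higher in B cells of mice given soluble OVA than in those of mice given PBS. Of 78 members, 38 were called higher and 0 lower, where a call is an adjusted p under 0.05 in the edgeR quasi-likelihood test and an absolute log2 fold change above 0.25. Over all 15792 genes tested, 13.5% were called higher and 13.9% lower. With a block for the replicate number, which the labels tie to no mouse or batch, 23 of the 38 were still called. The median log2 fold change was 0.296 for members and −0.017 for all genes, and 76 members had a positive value. The libraries of the groups did not overlap, with soluble OVA higher, for 56 members (71.8%), against 22.1% of all genes.

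*Mrpl34* had the largest difference. It encodes the counterpart of bacterial L34, and its promoter window is shown above. Its levels were 8.17, 5.35, and 8.67 CPM with PBS and 17.0, 13.6, and 16.6 CPM with soluble OVA. All soluble OVA libraries were above all PBS libraries, with PBS replicate 2 the lowest. The log2 fold change was 1.07 ± 0.20 (SE), a 2.09-fold difference (edgeR, adjusted p = 0.00439).

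*Mrpl18* was measured at 60.5, 54.2, and 56.4 CPM with PBS and at 95.9, 99.8, and 98 CPM with soluble OVA. The replicates of each group lay close together and far from those of the other. This gave a log2 fold change of 0.77 ± 0.07 (SE), or 1.70-fold (edgeR, adjusted p = 0.000133).

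*Mrpl49*, a large-subunit protein specific to mitochondria, was measured at 38.0, 35.6, and 39.0 CPM with PBS and at 57.6, 58.8, and 57.9 CPM with soluble OVA. These groups were separated by a wide gap as well. Its log2 fold change was 0.62 ± 0.07 (SE), or 1.53-fold (edgeR, adjusted p = 0.000431). *Mrpl20* went from 25.9, 27.6, and 29.6 CPM to 41.9, 40.8, and 40.5 CPM, with no overlap. Its log2 fold change was 0.56 ± 0.08 (SE), or 1.47-fold (edgeR, adjusted p = 0.0014).

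*Mrpl1*, the protein of the stalk near the tRNA exit site, was measured at 23.0, 21.5, and 17.2 CPM with PBS and at 28.5, 31.8, and 34.1 CPM with soluble OVA (1.52-fold). *Mrpl12*, the counterpart of the bacterial stalk protein L7/L12, was measured at 40.3, 31.0, and 43.4 CPM with PBS and at 55.8, 59.5, and 53.9 CPM with soluble OVA. Neither pair of groups overlapped, although the PBS libraries spread more than the treated ones for *Mrpl12*. The other called members with the largest differences were *Mrps21*, *Mrps18c*, *Mrpl9*, *Mrpl47*, *Mrpl51*, *Mrps28*, *Mrpl39*, *Mrps7*, and *Mrps22*, with log2 fold changes from 0.48 to 0.60. The smallest called difference was that of *Mrpl13*, at 0.28. Members with a negative log2 fold change were *Mrpl23* (−0.08) and *Mrps35* (−0.01), and neither passed the test. *Mrps6*, the lowest in counts, had a log2 fold change of 0.51 that did not pass (edgeR, adjusted p = 0.1).

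The large subunit held 30 of the called members and the small subunit 8. The median log2 fold change was 0.325 over the 51 large-subunit members and 0.231 over the 26 small-subunit members. By origin, 23 of the 46 members with a bacterial counterpart and 15 of the 31 mitochondria-specific members were called. The difference between these classes was not tested.

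In PP of OVA NP–treated mice, members were lower than with soluble OVA. Of 78 members, 45 were called lower and 0 higher (edgeR), while 16.3% of the 15599 genes tested were called lower and 13.8% higher. With the replicate block, 28 of the 45 were still called. This comparison shares its soluble OVA libraries with the one above. Members had a median log2 fold change of −0.376 and all genes 0.025, and 76 members had a negative value. The groups did not overlap, with OVA NP lower, for 66 members (84.6%), against 25.6% of all genes.

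*Mrpl18* was measured at 45.4, 53.3, and 59.6 CPM with OVA NP, against the 95.9 to 99.8 CPM given above with soluble OVA. The highest OVA NP library was far below the lowest soluble OVA library. Its log2 fold change was −0.88 ± 0.09 (SE), or 0.543-fold (edgeR, adjusted p = 4e-04). *Mrpl40*, which is specific to mitochondria, was measured at 47.3, 52.0, and 45.7 CPM with soluble OVA and at 23.9, 28.9, and 32.1 CPM with OVA NP. Its groups were also far apart, with a log2 fold change of −0.76 ± 0.11 (SE), or 0.590-fold (edgeR, adjusted p = 0.00124).

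*Mrpl49* was measured at 37.4, 35.0, and 35.2 CPM with OVA NP, below the 57.6 CPM of its lowest soluble OVA library. The log2 fold change was −0.68 ± 0.08 (SE; edgeR, adjusted p = 0.000507). *Mrpl20* was measured at 25.3, 27.4, and 26.3 CPM with OVA NP, and its groups did not overlap either. This gave a log2 fold change of −0.63 ± 0.08 (SE; edgeR, adjusted p = 0.000849). *Mrps22*, a small-subunit protein specific to mitochondria, was measured at 20.5, 22.2, and 23.0 CPM with soluble OVA and at 13.2, 13.9, and 16 CPM with OVA NP. It was lower in every OVA NP library, with a log2 fold change of −0.60 ± 0.11 (SE; edgeR, adjusted p = 0.00391).

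The other called members with the largest differences were *Mrpl12*, *Mrpl51*, *Mrpl2*, *Mrpl1*, *Mrpl27*, *Mrpl35*, *Mrpl9*, *Mrpl21*, *Mrpl45*, and *Mrpl58*, with log2 fold changes from −0.59 to −0.52. *Mrpl27* is the counterpart of the bacterial protein that reaches the peptidyl transferase center, and *Mrpl58* encodes a peptidyl-tRNA hydrolase built into the large subunit. *Mrpl34* was measured at 13.2, 9.28, and 10.8 CPM with OVA NP, and its log2 fold change of −0.49 did not pass (edgeR, adjusted p = 0.0604). The members with a positive log2 fold change were *Mrpl33* (0.06) and *Mrpl24* (0.04), and neither passed. The large subunit held 31 of the called members and the small subunit 14, with median log2 fold changes of −0.380 and −0.299.

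**Figure D2:**
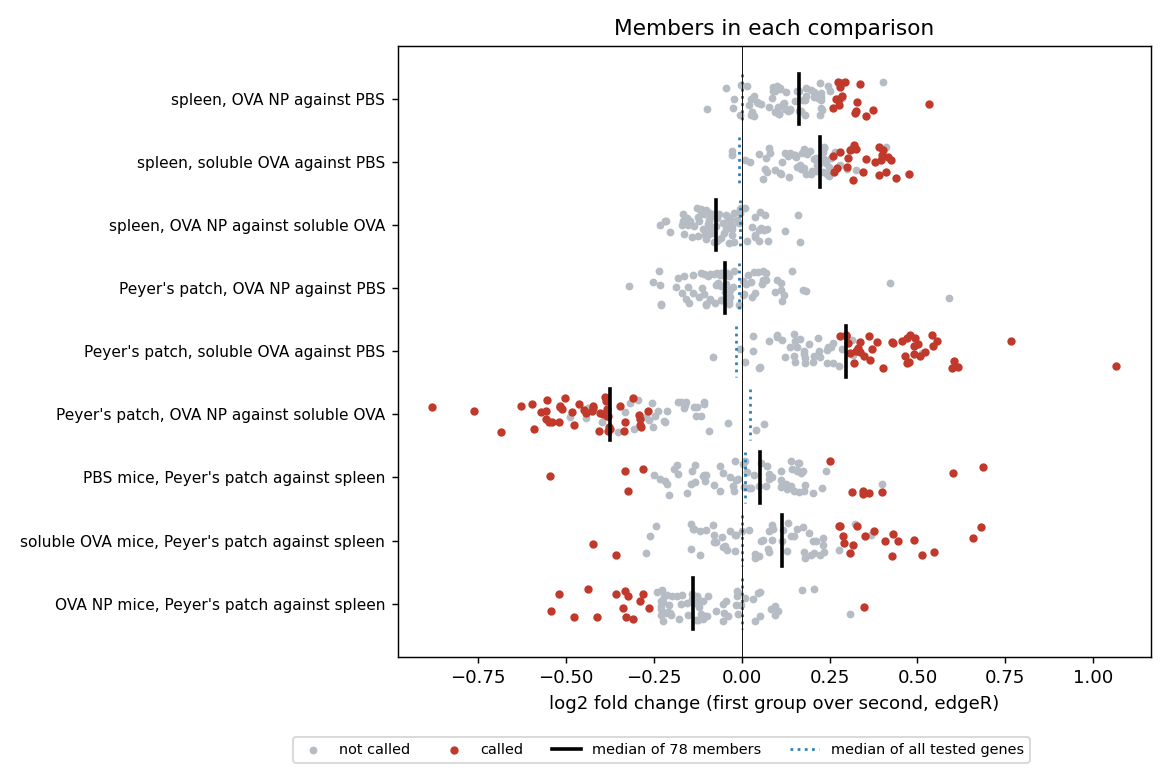
Log2 fold change of each member in the treatment comparisons of each tissue, and of PP against spleen in each treatment, 1 point per member, with called members in red, a black bar at the median of members, and a dotted line at the median of all tested genes. In PP, 38 members were called higher with soluble OVA than with PBS, 45 were called lower with OVA NP than with soluble OVA, and 0 were called between OVA NP and PBS.

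No member was called between OVA NP and PBS in PP. edgeR and DESeq2 each called 0 members, and edgeR called 0.00% of the 15798 genes tested in either direction. Without adjustment, 6 members (7.69%) had a p under 0.05, a share below the 9.96% of all genes. The median log2 fold change was −0.047 for members and −0.007 for all genes. The 95% interval of the log2 fold change lay within 1.25-fold for 33 of the 78 members and reached beyond it for the others. *Mrpl40* had a log2 fold change of −0.32 with an interval of −0.56 to −0.08 (edgeR, adjusted p = 0.391). *Mrpl34* had a log2 fold change of 0.59 with an interval of 0.07 to 1.11 (edgeR, adjusted p = 0.455). The other members among the 6 were *Mrpl11*, *Mrps18b*, *Mrpl10*, and *Mrpl23*, with values from −0.25 to −0.23.

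In spleen too, members were higher with soluble OVA than with PBS. Of 78 members, 24 were called higher and 0 lower (edgeR), against 10.5% and 6.72% of the 14128 genes tested. Over members the median log2 fold change was 0.224, over all genes it was −0.008, and 76 members were positive. The groups did not overlap, with soluble OVA higher, for 40 members (51.3%), against 19.1% of all genes. The count depended on single libraries. It was 11 without soluble OVA replicate 1, 11 without PBS replicate 1, and 6 without PBS replicate 2, and the median without soluble OVA replicate 1 was 0.152. DESeq2 called 14 members.

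*Mrpl18* was measured at 45.2, 44.2, and 45.8 CPM with PBS and at 67.8, 54.1, and 61.1 CPM with soluble OVA. The groups did not overlap, and the PBS libraries lay within a narrow band. This was a log2 fold change of 0.44 ± 0.08 (SE), or 1.36-fold (edgeR, adjusted p = 0.00109). *Mrps7*, the counterpart of a bacterial protein that starts assembly of the small-subunit head, was measured at 37.4, 37.3, and 37.0 CPM with PBS and at 51.2, 46.8, and 48.9 CPM with soluble OVA. Its groups were clearly separate, with a log2 fold change of 0.40 ± 0.07 (SE), or 1.32-fold (edgeR, adjusted p = 0.000868).

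Other called members with the largest differences were *Mrpl51*, *Mrpl17*, *Mrpl41*, *Mrps21*, *Mrpl28*, *Mrps18c*, *Mrpl27*, *Mrpl12*, *Mrps14*, *Mrpl52*, *Mrpl1*, and *Mrps30*, with log2 fold changes from 0.32 to 0.42. The large subunit held 18 of the called members and the small subunit 5, and 0 of the 10 mitochondria-specific small-subunit members were called. *Mrps36*, which is not a ribosomal protein, had the largest log2 fold change among the called members, 0.48 ± 0.14 (SE; edgeR, adjusted p = 0.0277). Its levels were 10.5, 8.27, and 8.24 CPM with PBS and 14.6, 11.5, and 11.2 CPM with soluble OVA. Of the 24 members called in spleen, 15 were also called in the same direction in PP, or 62.5% of the spleen list and 39.5% of the PP list. Of all 78 members, 48.7% were called higher in PP and 30.8% in spleen. The overlap was not tested. These comparisons share no library, and the labels do not say whether they share mice. The 15 shared members included *Mrpl1*, *Mrpl12*, *Mrpl18*, *Mrpl27*, *Mrpl51*, *Mrps7*, *Mrps18c*, and *Mrps21*. Without soluble OVA replicate 1 of the spleens, 8 of the 11 members called there were also called in PP (72.7% and 21.1%), and *Mrpl12*, *Mrpl18*, *Mrpl51*, and *Mrps7* were among them. Of the members named for spleen here, *Mrpl1*, *Mrpl27*, *Mrpl41*, *Mrps14*, *Mrps18c*, *Mrps21*, *Mrps30*, and *Mrps36* were not called without that library.

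OVA NP–treated spleens were also higher than PBS spleens. Of 78 members, 16 were called higher and 0 lower (edgeR), against 8.60% and 6.35% of the 14200 genes tested, and the PBS libraries are those of the soluble OVA comparison. Over members the median log2 fold change was 0.162, over all genes it was 0.001, and 72 members were positive. The groups did not overlap, with OVA NP higher, for 36 members (46.2%), against 18.7% of all genes. The count was 7 and 5 without PBS replicates 1 and 2, and 4 and 6 without OVA NP replicates 1 and 2. DESeq2 called 10 members, and edgeR with all 18 libraries in the fit called 4.

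*Mrps6* had the largest called difference. It was measured at 4.29, 5.13, and 5.16 CPM with PBS and at 7.0, 6.93, and 7.09 CPM with OVA NP. All OVA NP libraries were above all PBS libraries, with a log2 fold change of 0.53 ± 0.16 (SE), or 1.45-fold (edgeR, adjusted p = 0.027). *Mrps7* was measured at 48.5, 49.6, and 46.2 CPM with OVA NP, and the groups were again separate. The log2 fold change was 0.37 ± 0.06 (SE), or 1.3-fold (edgeR, adjusted p = 0.000718). *Mrpl18* was measured at 57.7, 58.8, and 52.2 CPM with OVA NP, above all PBS libraries, with a log2 fold change of 0.32 ± 0.06 (SE; edgeR, adjusted p = 0.00257). The other called members were *Mrpl28*, *Mrpl41*, *Mrps11*, *Mrpl51*, *Mrpl12*, *Mrps14*, *Mrpl20*, *Mrpl35*, *Mrpl42*, *Mrpl30*, *Mrpl45*, *Mrpl17*, and *Mrps23*, with log2 fold changes from 0.26 to 0.36. *Mrpl49* had a value of −0.01, and the most negative member was *Mrps10*, at −0.10.

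Between OVA NP and soluble OVA in spleen, edgeR and DESeq2 each called 0 members, and 1 member, *Mrpl52* (1.28%), had an unadjusted p under 0.05, against 8.66% of all genes. edgeR called 0.137% of the 13840 genes tested higher and 0.101% lower. The median log2 fold change was −0.072 for members and −0.004 for all genes, and values ran from −0.23 to 0.17. Without soluble OVA replicate 1 the median was 0.004. The 95% interval lay within 1.25-fold for 54 of the 78 members, more than for the same treatments in PP, where it did so for 3.

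**Figure D3:**
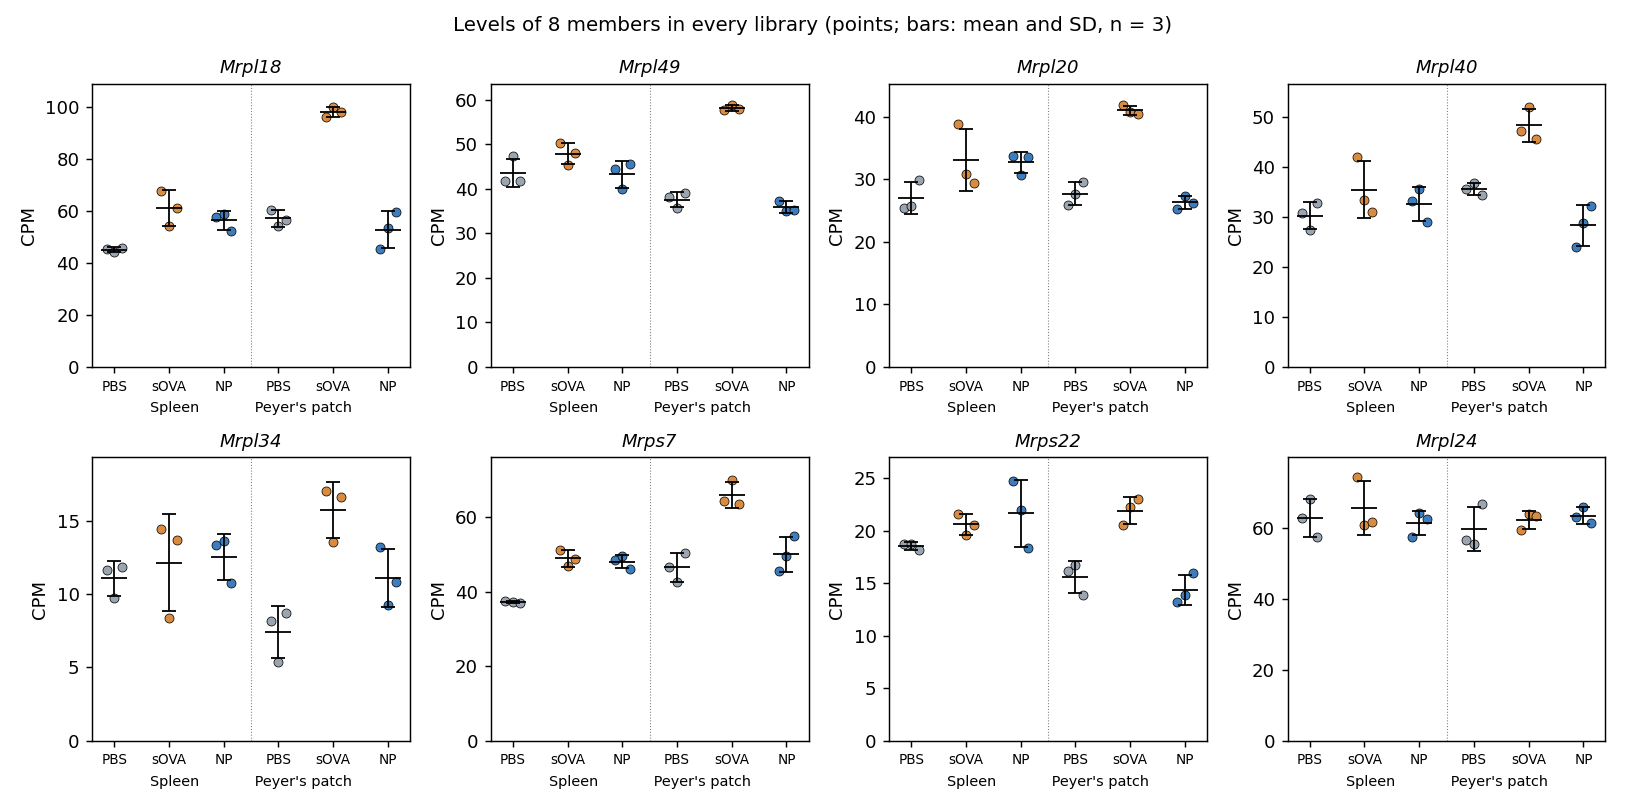
CPM of 8 members in every library by tissue and treatment, with points for libraries and bars for the mean and SD (n = 3). *Mrpl18*, *Mrpl49*, *Mrpl20*, *Mrpl40*, and *Mrps22* had no overlap between soluble OVA and OVA NP in PP, while the groups of *Mrpl24* overlapped.

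An interaction term of tissue with treatment was used to test whether the treatment differences differed between tissues. For OVA NP against soluble OVA, 15 members (19.2%) passed with a lower value in PP than in spleen and 0 with a higher one (edgeR). Of the 16471 genes tested, 8.96% passed with a lower value, 7.97% with a higher one, and 16.9% in either direction. This comparison was added after the data had been seen. The median difference of log2 fold changes was −0.293 for members and 0.042 for all genes. The difference was −0.75 ± 0.14 (SE) for *Mrpl18* (edgeR, adjusted p = 0.00251), −0.53 for *Mrpl49* (edgeR, adjusted p = 0.00319), and −0.57 for *Mrps27*, a small-subunit protein with pentatricopeptide repeats (edgeR, adjusted p = 0.00645). *Mrpl20* (−0.60), *Mrpl9* (−0.42), *Mrpl35* (−0.58), *Mrpl12* (−0.50), and *Mrps22* (−0.66) passed as well. The count was 26 without spleen soluble OVA replicate 1, 8 and 9 without replicates 2 and 3 of that group, and 9 without spleen OVA NP replicate 1.

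For soluble OVA against PBS, the only member that passed was *Mrpl49*. This is 1.28% of members, below the 6.84% of the 16541 genes tested that passed in either direction and the 1.77% that passed with a higher value in PP (5.07% passed with a lower one). Its spleen levels were 41.7, 47.3, and 41.8 CPM with PBS and 50.2, 45.4, and 48.1 CPM with soluble OVA, which overlap, unlike its levels in PP. The log2 fold change in PP was greater by 0.48 ± 0.10 (SE; edgeR, adjusted p = 0.01). The median difference was 0.082 for members and −0.038 for all genes. The next smallest p belonged to *Mrpl34* (0.93; edgeR, adjusted p = 0.0743) and *Mrpl18* (0.33; edgeR, adjusted p = 0.0831). Without spleen soluble OVA replicate 1 the count was 2.

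For OVA NP against PBS, 0 members passed in edgeR and 2 in DESeq2, while 4.42% of the 16619 genes tested passed in edgeR, 3.54% with a lower and 0.872% with a higher value in PP. Without adjustment, 25 members (32.1%) and 18.7% of all genes had a p under 0.05, and the median difference was −0.186 for members and 0.004 for all genes. The smallest adjusted p was that of *Mrps14*, at 0.0584 (edgeR), with a difference of −0.42. It was followed by *Mrpl18* (−0.41), *Mrps23* (−0.41), and *Mrps18a* (−0.44). The count was 1 without spleen OVA NP replicate 3, 3 without PP OVA NP replicate 3, and 3 without PP PBS replicate 2.

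PP and spleen were next compared within each treatment. In PBS-treated mice, 8 members were called higher and 4 lower in PP (edgeR), where 25.5% and 20.1% of the 15463 genes tested were called. The shares of members, 10.3% and 5.13%, were both below those of all genes. The median log2 fold change was 0.053 with TMM normalization and −0.024 with library totals only, so its direction depended on the scaling. With library totals only, 6 members were called higher and 9 lower. Members did not overlap between tissues for 13 genes with PP higher (16.7%, against 30.6% of all genes) and 10 with PP lower (12.8%, against 29.6%). The count of called members was 7 without spleen PBS replicate 1 or without replicate 2.

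*Mrpl27* had the largest difference in these mice. It was measured at 11.1, 9.53, and 11.7 CPM in spleen and at 16.6, 17.7, and 17.2 CPM in PP. The tissues were separate, with a log2 fold change of 0.69 ± 0.12 (SE), or 1.61-fold (edgeR, adjusted p = 0.000908). *Mrps18a* is 1 of 3 genes related to that of bacterial S18, and was counted as mitochondria-specific because its product sits in the large subunit, where bacteria have no such protein. It was measured at 22.7, 21.1, and 20.1 CPM in spleen and at 31.9, 30.3, and 33.3 CPM in PP. It too was higher in every PP library, with a log2 fold change of 0.60 ± 0.09 (SE), or 1.52-fold (edgeR, adjusted p = 0.000387). The other members called higher were *Mrps18c*, *Mrpl18*, *Mrps7*, *Mrpl54*, *Mrps14*, and *Mrpl40*, with log2 fold changes from 0.25 to 0.40. Those called lower were *Mrpl34* (−0.55), *Mrpl50* (−0.33), *Mrpl22* (−0.33), and *Mrpl36* (−0.28), all of the large subunit.

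In soluble OVA–treated mice, 18 members were called higher and 2 lower in PP (edgeR), against 26.7% and 24.3% of the 15415 genes tested. The shares of members, 23.1% and 2.56%, were both below these. Members had a median log2 fold change of 0.116 and all genes 0.000. Without spleen soluble OVA replicate 1, 26 members were called in either direction, against 20 with it, and their median was 0.175. *Mrpl18* was higher by 0.68 ± 0.08 (SE) on the log2 scale, or 1.60-fold (edgeR, adjusted p = 0.000121), with every PP library above every spleen library. *Mrpl27*, *Mrps18c*, *Mrpl1*, *Mrps18a*, *Mrpl40*, *Mrpl58*, *Mrps7*, *Mrpl21*, *Mrpl4*, *Mrpl54*, *Mrpl57*, and *Mrpl45* followed, with log2 fold changes from 0.32 to 0.66. With library totals only, 12 members were called higher and 5 lower. The members called lower were *Mrps16* (−0.42) and *Mrpl52* (−0.36). *Mrps16* was measured at 39.7, 38.3, and 36.3 CPM in spleen and at 32.0, 26.7, and 26.6 CPM in PP, with no overlap. The 7 members called higher in both PBS and soluble OVA mice, which are separate libraries, were *Mrpl18*, *Mrpl27*, *Mrpl40*, *Mrpl54*, *Mrps7*, *Mrps18a*, and *Mrps18c*. They made up 87.5% of the former list and 38.9% of the latter.

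In OVA NP–treated mice, 14 members were called lower and 1 higher in PP (edgeR), where 15.1% and 22.0% of the 15466 genes tested were called. The share of members called lower, 17.9%, was near that of all genes, and the share called higher, 1.28%, was below it. Members had a median log2 fold change of −0.138 and all genes 0.002. Members did not overlap, with PP lower, for 37 genes (47.4%, against 30.0% of all genes). The count of called members was 9 without spleen OVA NP replicate 1, without replicate 2 of that group, or without PP OVA NP replicate 2. *Mrps22* was measured at 24.7, 22.0, and 18.3 CPM in spleen and at 13.2, 13.9, and 16 CPM in PP, with no overlap and a log2 fold change of −0.54 ± 0.13 (SE; edgeR, adjusted p = 0.00946). *Mrpl22*, a protein that lines the exit tunnel, was measured at 21.9, 23.1, and 18.6 CPM in spleen and at 13.6, 15.2, and 14.1 CPM in PP. Its log2 fold change was −0.52 ± 0.12 (SE; edgeR, adjusted p = 0.00571). The others called lower were *Mrps16*, *Mrpl36*, *Mrpl41*, *Mrpl50*, *Mrpl52*, *Mrpl35*, *Mrps18b*, *Mrps27*, *Mrps35*, *Mrpl30*, *Mrps5*, and *Mrpl20*, with log2 fold changes from −0.48 to −0.27. The member called higher was *Mrps18c*, at 0.35. With library totals only, 29 members were called lower and 0 higher.

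The members called lower in both PBS and OVA NP mice were *Mrpl22*, *Mrpl36*, and *Mrpl50*. *Mrps16* and *Mrpl52* were called lower in both soluble OVA and OVA NP mice. *Mrps18c* was called higher in PP with all 3 treatments under TMM normalization, and not in OVA NP mice with library totals only. Of its exon sequence, 23.2% overlaps another gene on the same strand, which no strand setting of the counting would separate.

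The remaining genes needed to build and feed the mitochondrial ribosome were followed on lists set beside the members. Over all genes, 13.5% were called higher and 13.9% lower in PP with soluble OVA than with PBS. For OVA NP against soluble OVA in PP, 16.3% were called lower and 13.8% higher. In spleen, 10.5% were called higher with soluble OVA and 8.60% with OVA NP than with PBS. Whether the lists differ from these shares was not tested. Of 5 subunits that the naming rule leaves out, *Chchd1* was higher in spleen with OVA NP (0.34 log2) and with soluble OVA (0.43 log2) than with PBS. In PP with soluble OVA, *Dap3*, a GTP-binding small-subunit protein (0.35 log2), and *Gadd45gip1*, a large-subunit protein (0.37 log2), were higher than with PBS. All but *Ptcd3* were called lower in PP with OVA NP than with soluble OVA, with log2 fold changes from −0.43 to −0.37. Of 16 translation factors, 3 were called higher in PP with soluble OVA than with PBS. These were *Gfm1* (0.42 log2) and *Tufm* (0.40 log2), the elongation factors, and *Tsfm* (0.35 log2), which recycles the product of *Tufm*. With OVA NP against soluble OVA in PP, 5 were lower, with *Tsfm* at −0.63 and *Tufm* at −0.54 log2.

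Of 19 import and protein quality control genes, 11 were called higher in PP with soluble OVA than with PBS, with a median log2 fold change of 0.331. They included the chaperonins *Hspd1* (0.60 log2) and *Hspe1* (0.49 log2) and the import pore gene *Tomm40* (0.42 log2). In PP with OVA NP against soluble OVA, 12 were called lower, with a median of −0.407, among them *C1qbp* (−0.63 log2) and *Tomm40* (−0.62 log2). In spleen, 11 were called higher with soluble OVA, or 8 without soluble OVA replicate 1, and 4 with OVA NP than with PBS.

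Assembly and rRNA-modifying factors did not move in 1 direction. Of 29 tested, 2 were called higher in PP with soluble OVA than with PBS, *Grsf1* (0.41 log2) and *Noa1* (0.29 log2), and 3 lower, *Gtpbp6* (−0.44 log2), *Mtg2* (−0.36 log2), and *Mettl17* (−0.34 log2). *Gtpbp6*, which dissociates mitochondrial ribosomes, was higher in PP with OVA NP than with soluble OVA (0.42 log2). Of 20 genes for charging mitochondrial tRNAs, 4 were called higher and 2 lower in PP with soluble OVA than with PBS, against 13.5% and 13.9% of all genes. Among them were *Nars2* (0.39 log2) and *Mars2* (−0.54 log2). In spleen with soluble OVA against PBS, 1 was called higher and 3 lower, against 10.5% and 6.72% of all genes. Without soluble OVA replicate 1 these counts were 1 and 0. On the list of 19 genes set up for mitochondrial transcription and RNA processing, only *Polg2* (−0.40 log2) was called in PP with soluble OVA against PBS. It encodes a subunit of the mitochondrial DNA polymerase and not a protein of transcription or RNA processing.

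The 13 mRNAs that the mitochondrial ribosome translates were higher in PP with OVA NP than with soluble OVA, where the members were lower. All 13 were called (edgeR), with a median log2 fold change of 0.742 and values from 0.567 to 0.922. With soluble OVA against PBS, 0 were called and 13 had negative values, with a median of −0.231. With OVA NP against PBS, 0 were called and 13 had positive values, with a median of 0.494. Mitochondrially encoded genes took 9.08–9.80% of the counts in the OVA NP libraries of PP, 4.97–6.02% with soluble OVA, 5.41–7.67% with PBS, and 2.82–3.41% in spleen. With these genes removed before normalization, 55 members were called between OVA NP and soluble OVA in PP, with a median of −0.410.

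The cytosolic ribosomal protein genes were followed beside the members. Of 79 tested, 64 were called higher in spleen with soluble OVA and 22 with OVA NP than with PBS, with median log2 fold changes of 0.320 and 0.214. Without soluble OVA replicate 1, 31 were called in the former comparison, with a median of 0.234. In PP, 12 were called higher with soluble OVA than with PBS, with a median of 0.166, and 27 lower with OVA NP than with soluble OVA, with a median of −0.205. Of all genes, 13.5% and 16.3% were called in these directions, so the count of 12 was near the share of all genes. The difference between these lists was not tested. Between tissues, 64 cytosolic ribosomal protein genes were lower in PP than in spleen of OVA NP mice, with a median of −0.320, against 15.1% of all genes. The difference was not limited to these mice. With soluble OVA, the median log2 deviation of the list was −0.03 to 0.12 in PP and 0.13 to 0.42 in spleen. With PBS it was −0.20 to −0.10 in PP and −0.10 to 0.00 in spleen.

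**Figure D4:**
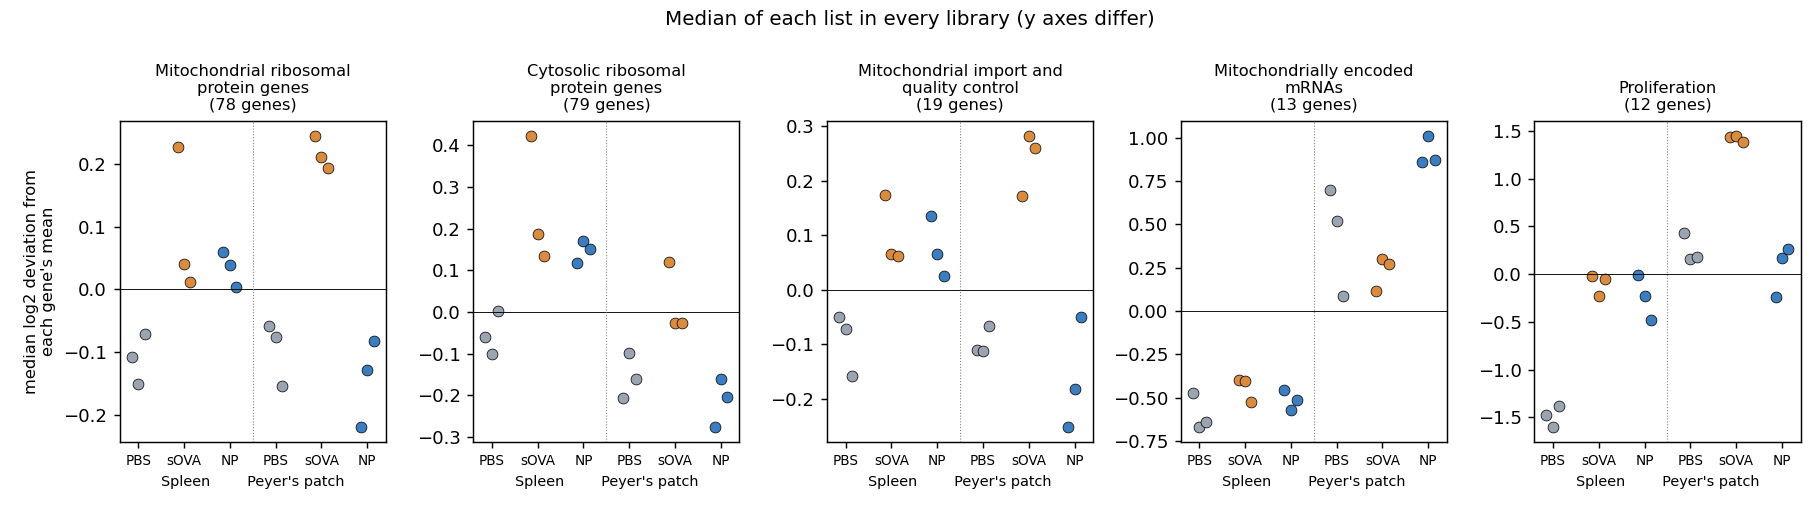
Median log2 deviation from each gene's own mean in every library, 1 panel each for the 78 members, 79 cytosolic ribosomal protein genes, 19 import genes, 13 mitochondrially encoded mRNAs, and 12 proliferation genes, with y axes that differ between panels. In PP the mitochondrially encoded mRNAs were highest with OVA NP. The members were highest with soluble OVA, and their OVA NP libraries (−0.22 to −0.08) overlapped the PBS libraries (−0.15 to −0.06).

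Proliferation genes moved with the members in each treatment comparison that had called members. All 12 on the list, such as *Mki67* and *Top2a*, were called higher in spleen with OVA NP and with soluble OVA and in PP with soluble OVA than with PBS, and lower in PP with OVA NP than with soluble OVA. Their median log2 fold changes were 1.302, 1.427, 1.083, and −1.252, and their summed level was 4577–4953 CPM in PP with soluble OVA and 1620–2345 CPM with OVA NP. Germinal center genes moved with the members in these comparisons as well. Of 11 on the list, 8 were called higher in spleen with OVA NP, 10 in spleen with soluble OVA, and 9 in PP with soluble OVA than with PBS, and 9 were called lower in PP with OVA NP than with soluble OVA. Without spleen soluble OVA replicate 1, 5 were called higher in spleen with soluble OVA. They summed in spleen to 289–361 CPM with PBS, 639–879 CPM with soluble OVA, and 638–661 CPM with OVA NP. In PP they summed to 1904–2295 CPM with PBS, 3398–3443 CPM with soluble OVA, and 1463–2278 CPM with OVA NP. Myeloid markers summed to 95.3–109 CPM in PP with soluble OVA and 143–243 CPM with OVA NP, and 3 of 8 were called higher with OVA NP. T cell markers summed to 160–180 CPM and 133–142 CPM in the same groups, but 4 of 7 were called higher and 1 lower with OVA NP. Those higher were *Cd3e* (1.705 log2), *Cd8a* (1.664), *Cd3g* (1.511), and *Cd4* (1.449), and the lower one was *Lck* (−0.474). The sum thus went the other way from most of the called markers. The part of cell composition and of proliferation in the differences between members was not tested.

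Among 13 regulators of mitochondrial genes, *Gabpa*, a subunit of GABP, and *Yy1* were higher in PP with soluble OVA than with PBS, with log2 fold changes of 0.40 and 0.32 (edgeR, adjusted p = 0.00394 and 0.0124). Both were lower with OVA NP than with soluble OVA, with log2 fold changes of −0.31 and −0.42 (edgeR, adjusted p = 0.0132 and 0.00287). *Myc*, which drives ribosome production in activated B cells, was lower in PP with soluble OVA than with PBS, with a log2 fold change of −0.93 (edgeR, adjusted p = 0.0181). Its value with OVA NP against soluble OVA was 0.47 log2 and did not pass (edgeR, adjusted p = 0.378). In spleen the log2 fold change of *Myc* against PBS was 0.02 and 0.06, and it was not called. Of the 13 regulators, 0 were called higher and 1 lower in spleen with soluble OVA than with PBS, with a median of −0.005. The shares of all genes called in that comparison were 10.5% and 6.72%. Members with the GABP word had a median log2 fold change of 0.31 with soluble OVA against PBS in PP, and members without it 0.30. With OVA NP against soluble OVA these medians were −0.42 and −0.35. For the E-box they were 0.39 and 0.29 in the former comparison, and for the NRF1 word 0.24 and 0.32. These differences between members with and without a word were not tested.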

How the data were processed

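Bulk RNA-Seq of magnetically isolated B cells was analysed in 18 libraries, 3 for each of 6 groups taken from the labels. Per the labels, the authors used cutadapt 2.3 for trimming, STAR 2.7.8a for alignment (genome build GRCm38), and RSEM 1.3.3 for quantification. The deposited values are expected counts without normalization, and all are whole numbers (0 exceptions). Totals were 14177253–30052297 counts. Replicates differed by more than counting error.

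Groups were compared with edgeR 4.0.16 (filterByExpr with a minimum count of 10 and total of 15, TMM, robust quasi-likelihood F test; R 4.3.3). Each comparison used its own 6 libraries, and each interaction 12. P-values were adjusted by Benjamini-Hochberg over all tested genes. As in the study's methods, a gene was called when the adjusted p was under 0.05 and its log2 fold change exceeded 0.25 in size; interactions needed the adjusted p only. SE is the log2 fold change divided by the root of F. CPM use TMM factors over all 18 libraries. Exon lengths and positions are those of GENCODE M21 (GRCm38). Gene models of 33 members overlap another gene on either strand, 10 of them by over 20% of exon sequence. These 10 were *Mrpl19*, *Mrpl24*, *Mrpl43*, *Mrpl47*, *Mrpl53*, *Mrps18b*, *Mrps18c*, *Mrps25*, *Mrps27*, and *Mrps34*. The strand setting of the counting is not given in the sources used here.

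Named members were up to 15 called per comparison with the largest changes and groups that did not overlap, the 3 highest and lowest by RPKM, the 5 smallest p per interaction, the 5 most and least like the family, and called exceptions in direction. The members and lists were chosen with earlier results of these data known. Alternatives were DESeq2 1.42.0 and its size factors, fits to more libraries, other filters, removal of mitochondrially encoded genes, a replicate block, leaving out each library, and, chosen after seeing the data, library totals only and lists without 1 spleen library. The main test has no replicate block. The steps were tested on simulated data. Some genes of the lists are not reported here.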

Additional observations from a re-analysis of the deposited data

Results flagged for a closer look

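The members listed here are those whose treatment difference differed between tissues by the interaction test, which is what singled them out. For soluble OVA against PBS this was *Mrpl49*, with a log2 fold change higher in PP than in spleen by 0.48. At 1 of 78 members (1.28%), this is below the 6.84% of all genes that passed. For OVA NP against soluble OVA, the log2 fold change was lower in PP than in spleen for 15 members (19.2%), where 8.96% of all genes passed in that direction and 16.9% in either. Of the large subunit these were *Mrpl18* (−0.75), *Mrpl40* (−0.63), *Mrpl20* (−0.60), *Mrpl35* (−0.58), *Mrpl49* (−0.53), *Mrpl12* (−0.50), *Mrpl45* (−0.47), *Mrpl57* (−0.47), *Mrpl9* (−0.42), *Mrpl21* (−0.41), and *Mrpl4* (−0.36). Of the small subunit they were *Mrps22* (−0.66), *Mrps27* (−0.57), *Mrps11* (−0.44), and *Mrps7* (−0.35). Groups of 3 libraries are too small to test single libraries as outliers.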

How the results depend on the processing

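No called member changed direction under any alternative run. DESeq2 called 10 members for OVA NP against PBS and 14 for soluble OVA against PBS in spleen, and 2 and 3 in the interactions for the same treatments. With all 18 libraries in the fit, the spleen count for OVA NP against PBS was 4. With the replicate block, 23 members were called in PP for soluble OVA against PBS, 28 for OVA NP against soluble OVA, and 2 in the interaction for soluble OVA against PBS. The labels do not say whether same-numbered libraries share a mouse or batch. Correlations of their deviations ran from −0.341 to 0.262, and in no comparison were all of them above 0.1. So few libraries cannot decide whether they are paired. With at least 10 counts in every library, the interaction for OVA NP against PBS gave 2, and with no filter, that for soluble OVA gave 2. With library totals only, the median of PP against spleen was −0.024 in PBS mice, 0.049 in soluble OVA mice, and −0.237 in OVA NP mice, where 29 members were called. The causes were not tested.

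Leaving out 1 library at a time gave 4 to 23 members for OVA NP against PBS, 6 to 33 for soluble OVA against PBS, and 0 to 0 for OVA NP against soluble OVA in spleen. In PP the counts were 0 to 0, 28 to 35, and 33 to 51. Between tissues they were 7 to 16 in PBS mice, 14 to 26 in soluble OVA mice, and 9 to 20 in OVA NP mice. In the interactions they were 0 to 3, 1 to 2, and 8 to 26, in the same order of treatments. The medians ran from 0.122 to 0.192, from 0.152 to 0.266, and from −0.097 to 0.004 in spleen, from −0.088 to −0.016, from 0.312 to 0.352, and from −0.438 to −0.317 in PP, and from 0.012 to 0.066, from 0.070 to 0.175, and from −0.191 to −0.125 between tissues. Differences under 1.25-fold were within the intervals of many members at this depth and number of libraries.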
